A study of Mus musculus with 6 samples.

Results

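The 10 genes described here encode histone chaperones, the proteins that carry histones and place them on DNA, together with the acetyltransferase HAT1. They are Chaf1a, Chaf1b, Asf1a, Asf1b, Hat1, Nasp, Hira, Daxx, Atrx and Npm1. They were chosen by name, as partners of RBBP4 and RBBP7 or as other members of the same pathway, and were matched by symbol among the 55401 genes listed. All 10 were found, and all 10 were among the 14156 genes tested. RNA was measured in 46C cells, which are mouse embryonic stem cells (mESCs) of an established line. The control cells stably carried a biotin tag alone, the Rbbp4 OE cells carried biotin-tagged Rbbp4, and the Rbbp7 OE cells carried biotin-tagged Rbbp7. There were 3 groups of 2 libraries. By the study's methods, such tagged lines were made from cells that already carried the BirA-V5 biotin ligase, which the sample labels do not name for any group, both constructs came from lentivirus, and cells were selected with a drug after each infection, with no mention of single clones. All were grown in serum medium on gelatin with LIF, Chir99021 and PD0325901, and no further treatment was given.

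New histones H3 and H4 pass along a relay. HAT1 acetylates histone H4 in the cytoplasm together with RBBP7 or RBBP4. NASP protects a reserve of soluble H3 and H4, and ASF1A and ASF1B hand them on to the depositing chaperones. CAF-1 then places them on newly copied DNA, and it is built of CHAF1A, CHAF1B and RBBP4. HIRA and the pair DAXX and ATRX instead deposit the variant H3.3 outside replication, ATRX and DAXX mainly in heterochromatin. NPM1 is an abundant nucleolar protein that binds histones and takes part in ribosome assembly.

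Promoter sequence is shown for the 3 genes of the relay that fell in Rbbp4 OE cells, Chaf1a, Hat1 and Nasp, and for Chaf1b, the CAF-1 partner that did not pass the test. Each run is the 250 bases before the RefSeq transcript start in GRCm38.p6, written 5′ to 3′ on the strand of the gene. Capitals mark matches, on either strand, to a CCAAT box (CCAAT), a GC box (GGGCGG), a cell cycle homology element (TTTGAA) or an E2F-type site. The windows are chr17:56040166-56040415 on the plus strand for Chaf1a, chr16:93883651-93883900 on the plus strand for Chaf1b, chr2:71389010-71389259 on the plus strand for Hat1, and chr4:116627952-116628201 on the minus strand for Nasp.
Chaf1a: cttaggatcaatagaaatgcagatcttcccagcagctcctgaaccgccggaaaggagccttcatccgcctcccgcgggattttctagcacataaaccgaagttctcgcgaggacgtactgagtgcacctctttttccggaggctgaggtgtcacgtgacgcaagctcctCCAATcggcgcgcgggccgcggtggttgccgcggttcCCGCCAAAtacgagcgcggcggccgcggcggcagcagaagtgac
Chaf1b: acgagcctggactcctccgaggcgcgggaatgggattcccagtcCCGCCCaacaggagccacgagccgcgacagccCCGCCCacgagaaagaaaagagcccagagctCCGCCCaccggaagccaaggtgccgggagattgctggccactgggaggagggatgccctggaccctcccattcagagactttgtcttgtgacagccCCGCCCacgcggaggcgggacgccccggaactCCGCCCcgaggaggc
Hat1: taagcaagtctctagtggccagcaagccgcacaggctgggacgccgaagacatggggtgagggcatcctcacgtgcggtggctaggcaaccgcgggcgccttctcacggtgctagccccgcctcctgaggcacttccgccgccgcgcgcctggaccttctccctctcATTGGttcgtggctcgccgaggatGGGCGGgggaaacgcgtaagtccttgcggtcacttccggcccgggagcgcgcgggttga
Nasp: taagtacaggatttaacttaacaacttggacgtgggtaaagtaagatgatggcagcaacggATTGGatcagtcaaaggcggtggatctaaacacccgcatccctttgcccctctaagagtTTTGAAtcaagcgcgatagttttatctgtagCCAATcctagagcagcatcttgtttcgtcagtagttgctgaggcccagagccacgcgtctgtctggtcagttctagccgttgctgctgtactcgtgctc

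The Chaf1a window held 1 CCAAT box and the E2F-type letters TTTGGCGG on the opposite strand, 44 bases before the start. That word was added after the sequences had been read, and it occurs in 0.444% of 32851 RefSeq promoter windows of the same length. The other E2F-type words searched, TTTGGCGC, TTTCCCGC and TTTCGCGC, were in none of the 11 windows of the 9 genes that had an entry. The Chaf1b window held 5 GC boxes, all on the opposite strand, and no CCAAT box. Hat1 held 1 of each. Nasp held 2 CCAAT boxes and the cell cycle homology element. Among the 9 genes, 7 had a CCAAT box (33.8% of all windows) and 6 a GC box (32.7% of all windows). The cell cycle homology element was in Asf1b and Nasp, against 16.0% of all windows. The CCAAT box was in all 3 genes that fell and in 4 that did not pass the test. A match of letters does not show that a factor binds.

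Expression is given as TPM, a transcript share that divides by transcript length, so levels of different genes in a library can be set side by side. TPM does not keep sequencing depth, which is unknown here. The libraries were alike in breadth, with 19011 to 19691 genes above 0 TPM and 8.97% to 11.2% of TPM in mitochondrial genes. All 10 pluripotency markers were present, with a summed TPM of 7877 to 8857, and in Rbbp4 OE cells Pou5f1 rose by 0.25 while Nanog fell by 0.23 and Tfcp2l1 by 0.52 (adjusted p 0.0334, 0.0393 and 0.0330 by limma), whereas 6 primitive endoderm markers summed to 0.88 to 2.99 TPM. The 6 trophoblast markers gave 35.3 and 38.1 TPM in sum in the control pair, 46.0 and 47.1 in the Rbbp4 OE pair, and 43.4 and 45.3 in Rbbp7 OE. The 6 fibroblast markers summed to 6.89 and 8.21, 10.7 and 13.0, and 18.2 and 10.8 TPM in the same order, with Postn at 0 throughout. The 6 neural markers gave sums of 105.5 and 104.4 TPM for control, 120.7 and 121.9 for Rbbp4 OE and 96.4 and 96.8 for Rbbp7 OE, mostly Tubb3, with Neurog2 at 0, so the groups did not overlap. The trophoblast gene Tfap2c (log2 fold change 0.44, adjusted p 0.0385 by limma) and the fibroblast marker Thy1 (0.96, adjusted p 0.0192 by limma) rose in Rbbp4 OE cells. The other tested markers of these lists did not pass there. Below 0 were Cdx2 (-0.52) and Gata3 (-0.54) of trophoblast and Pdgfrb (-0.40) and Col1a1 (-0.07) of fibroblasts. Above 0 were Eomes of trophoblast (0.41, adjusted p 0.0822 by limma) and Col3a1 of fibroblasts (0.0073). In Rbbp7 OE against control Eomes was at 0.84 (adjusted p 0.0689 by limma). The median log2 fold change was -0.06 for the 4 trophoblast markers tested and -0.03 for the 4 fibroblast markers tested. The part of these markers in the results below was not tested.

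The targeted genes followed their labels. Rbbp4 was at 146.0 and 147.0 TPM in the control pair, 269.97 and 271.2 in the Rbbp4 OE pair and 143.9 and 142.7 in Rbbp7 OE. Rbbp7 was at 238.6 and 237.1 TPM in the control pair, 207.6 and 217.5 in the Rbbp4 OE pair and 724.7 and 748.1 in Rbbp7 OE. Rbbp4 therefore rose by 0.88 on the log2 scale in its line (adjusted p 0.00173 by limma) and Rbbp7 by 1.63 in its own (adjusted p 0.000227 by limma). A gene-level TPM counts reads from the endogenous gene and from the construct together.

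The genes spanned a wide range of levels, and their order was much the same in the 3 groups. Npm1 was highest everywhere, followed by Nasp and Hat1, and Atrx was lowest. In control cells the order went on with Chaf1b, Daxx, Chaf1a, Hira, Asf1a and Asf1b. The libraries of Chaf1a and Hira overlapped there, as did those of Asf1a and Asf1b, so neither pair was ordered beyond its spread. In Rbbp4 OE cells Asf1a stood next to Daxx, whose libraries overlapped both its own and those of Chaf1b, while Asf1a and Chaf1b did not overlap. The libraries of Hira and Chaf1a overlapped as well. In Rbbp7 OE cells Daxx and Chaf1b overlapped, and so did Chaf1a and Asf1a.

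**Figure D1:**
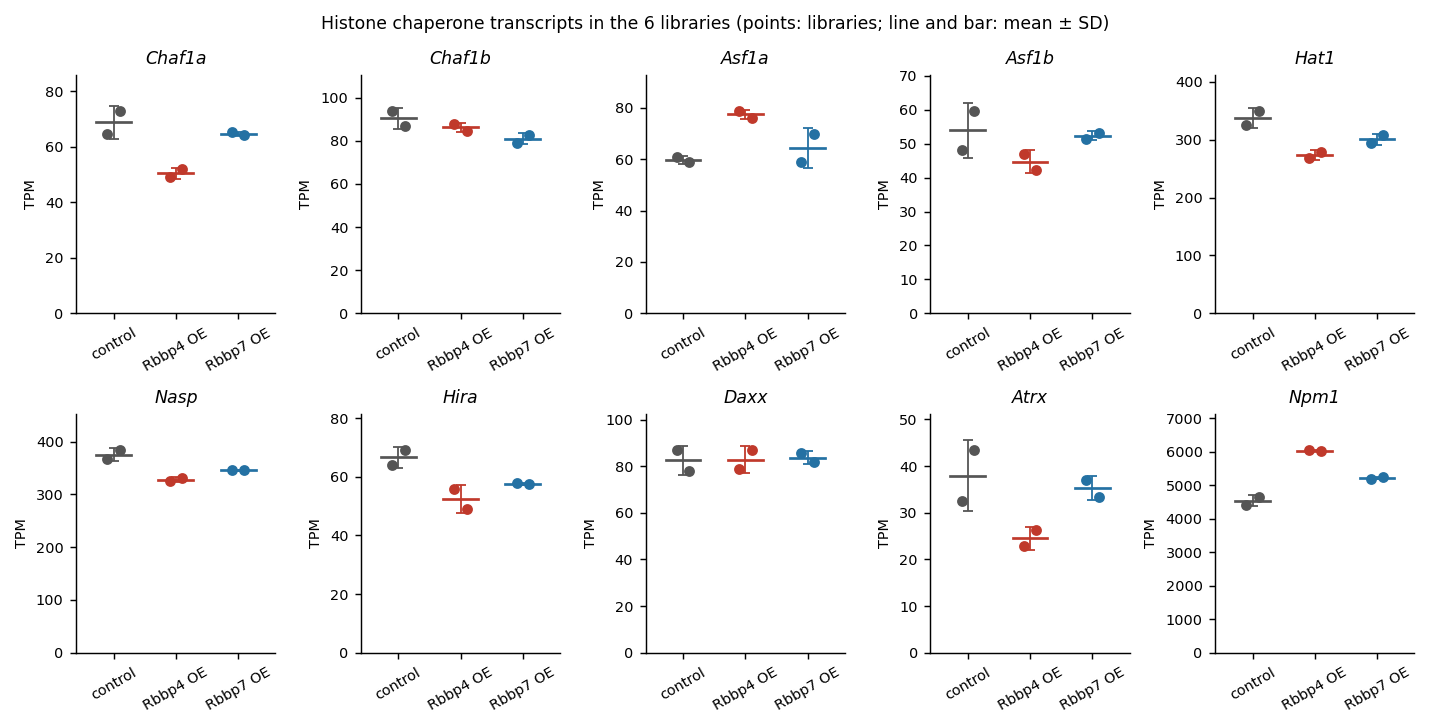
TPM of the 10 histone chaperone genes in each of the 6 libraries, 1 panel per gene with its own linear axis from 0. Points are libraries, lines and bars the mean and SD of each group; Npm1 lies between 4419.95 and 6039.5 TPM and Atrx between 22.8 and 43.4 TPM.

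The first comparison asked how the chaperone genes stood in cells with added Rbbp4. In Rbbp4 OE cells, 4 of the 10 genes passed an adjusted p of 0.05 (limma, Benjamini-Hochberg over all genes tested), with Npm1 higher and Chaf1a, Hat1 and Nasp lower. Of all genes tested 11.4% passed that threshold, 3.29% higher and 8.07% lower. That share includes genes of low level. Where genes needed a mean of 5 TPM, which all 10 had, 22.6% of all genes passed, and 7 of the 10. The 10 were also chosen with earlier results of these data known. None of the 10 passed the stricter threshold of a fold change over 2 together with an adjusted p under 0.01, which 0.516% of all genes passed, and 7 had an unadjusted p under 0.05 against 29.6% of all genes. The groups' libraries did not overlap for 8 of the 10, against 57.9% of all genes, with 2 higher (20.8% of all genes) and 6 lower (37.1% of all genes). The median log2 fold change of the 10 genes was -0.23, beside -0.08 over all genes tested and -0.10 over those with a mean of 5 TPM. In these bulk libraries fewer cells of a kind and less RNA per cell cannot be told apart. The calls were not stable when 1 library was left out and limma refitted. Most were lost in all of these fits but the one without control replicate 1. Each such fit leaves 1 library in a group and fewer residual degrees of freedom, and fewer of all genes tested passed too. Over these fits Chaf1a was at -0.52 to -0.35 on the log2 scale and Hat1 at -0.35 to -0.25. Nasp was at -0.22 to -0.16 and Npm1 at 0.38 to 0.45. The Rbbp7 OE libraries do not enter these fold changes. Scaling by median of ratios gave 2 genes higher (Asf1a, Npm1) and 1 lower (Chaf1a), while the split over all genes went from 466 higher and 1143 lower to 716 higher and 712 lower.

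CHAF1A is the large subunit of CAF-1. Chaf1a (ENSMUSG00000002835.9, chr17:56040439-56072289 in GRCm38) was at 64.7 and 73.0 TPM in the control pair, 49.2 and 51.9 in the Rbbp4 OE pair, and 65.2 and 64.3 in Rbbp7 OE. Both Rbbp4 OE libraries lay below all 4 others. Its group means were 68.8 ± 5.8, 50.5 ± 1.9 and 64.8 ± 0.69 TPM (SD, n = 2). Chaf1a fell by 0.44 on the log2 scale in Rbbp4 OE cells (SE 0.080, 95% interval -0.63 to -0.24, adjusted p 0.0264 by limma). Part of the Ubxn6 gene lies on the opposite strand of Chaf1a, at up to 28.8 TPM, and the sources do not say whether counting used strand.

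CHAF1B is the middle subunit of CAF-1. Chaf1b (chr16:93883901-93906115) was at 93.8 and 87.1 TPM in the control pair, 87.8 and 84.6 in the Rbbp4 OE pair, and 79.2 and 82.7 in Rbbp7 OE. The Rbbp4 OE libraries overlapped the control libraries, and the log2 fold change was -0.07 (95% interval -0.23 to 0.09, adjusted p 0.547 by limma). In Rbbp4 OE cells the ratio of Chaf1b to Chaf1a was therefore 1.79 and 1.63, beside 1.45 and 1.19 in the control pair and 1.21 and 1.29 in Rbbp7 OE. This ratio was chosen after the values had been seen, and 2 libraries against 2 cannot give an exact permutation p below 0.333.

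HAT1, which acetylates new histone H4, and NASP, which keeps soluble H3 and H4, both had lower RNA in Rbbp4 OE cells. Hat1 (chr2:71388958-71441622) was at 325.3 and 349.6 TPM in the control pair, 267.97 and 279.1 in the Rbbp4 OE pair, and 293.98 and 307.8 in Rbbp7 OE. The 3 groups did not overlap, with Rbbp7 OE in between. Hat1 fell by 0.30 in Rbbp4 OE cells (SE 0.057, 95% interval -0.44 to -0.16, adjusted p 0.0289 by limma). Nasp (chr4:116601052-116627941) was at 367.5 and 383.7 TPM in the control pair, 324.7 and 331.8 in the Rbbp4 OE pair, and 345.4 and 346.7 in Rbbp7 OE, again with no overlap. Nasp fell by 0.19 (SE 0.045, 95% interval -0.30 to -0.08, adjusted p 0.0476 by limma), close to the threshold.

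ASF1A and ASF1B are paralogs that pass H3 and H4 between chaperones, and their values in Rbbp4 OE cells lay on opposite sides of control. Asf1a (chr10:53596757-53609225) was at 60.9 and 58.7 TPM in the control pair, 78.8 and 76.1 in the Rbbp4 OE pair, and 58.8 and 69.8 in Rbbp7 OE. Both Rbbp4 OE libraries were above all others, with a log2 fold change of 0.37 over control (95% interval 0.14 to 0.59, adjusted p 0.0562 by limma), which did not pass as reported. Asf1a did pass by limma where genes needed a mean of 5 TPM (adjusted p 0.0339) and over protein-coding genes only (0.0388). It also passed with median-of-ratios scaling (0.0459), quantile normalization (0.0492) and GC and length correction (0.0455). Asf1b (chr8:83955507-83970197) was at 48.1 and 59.6 TPM in the control pair, 47.1 and 42.4 in the Rbbp4 OE pair, and 51.5 and 53.2 in Rbbp7 OE. The difference of Rbbp4 OE from control was -0.26 on the log2 scale (95% interval -0.54 to 0.02, adjusted p 0.203 by limma). That difference was -0.41 without control replicate 1 and -0.11 without control replicate 2. The ratio of Asf1a to Asf1b, also chosen after its values had been seen, was 1.67 and 1.80 in Rbbp4 OE against 1.26 and 0.985 in the control pair and 1.14 and 1.31 in Rbbp7 OE. Asf1a overlaps Mcm9 on the opposite strand, at up to 9.14 TPM.

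HIRA, DAXX and ATRX belong to the H3.3 routes, and none of their genes passed the test as reported. Hira (adjusted p 0.0346 and 0.0403) and Atrx (0.0322 and 0.0376) did pass by limma where genes needed a mean of 5 TPM and over protein-coding genes only, and Atrx also without control replicate 1 (0.0395). Hira (chr16:18877037-18970309) was at 64.2 and 69.1 TPM in the control pair, 55.95 and 49.1 in the Rbbp4 OE pair, and 57.7 and 57.4 in Rbbp7 OE. The control libraries were above all 4 others, and the log2 fold change in Rbbp4 OE was -0.34 (95% interval -0.55 to -0.13, adjusted p 0.0561 by limma). Atrx (chrX:105797615-105929403) was at 32.6 and 43.4 TPM in the control pair, 22.8 and 26.3 in the Rbbp4 OE pair, and 37.1 and 33.4 in Rbbp7 OE. Its Rbbp4 OE libraries were the lowest of the 6, but the controls also differed from each other, and the log2 fold change of -0.60 had a 95% interval of -0.97 to -0.23 and an adjusted p of 0.0574 by limma. Daxx (chr17:33909414-33915590) had the smallest ratio of highest to lowest library of the 10, 1.11, at 86.9 and 78.1, 78.7 and 86.8, and 85.8 and 81.8 TPM in the control pair, Rbbp4 OE and Rbbp7 OE. The groups overlapped fully, and the 95% interval of its Rbbp4 OE difference ran from -0.20 to 0.21 on the log2 scale.

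Other subunits of the HIRA complex did not pass the test. Ubn1, a subunit of the HIRA complex, was at 7.23 and 7.09 TPM in the control pair and 4.10 and 3.93 in Rbbp4 OE (log2 fold change -0.70, adjusted p 0.0543 by limma). Ubn2 had a log2 fold change of -0.28 (adjusted p 0.350 by limma). Cabin1, another subunit, had one of 0.27 (adjusted p 0.281 by limma). The cargo of these routes did not pass either: H3f3a had a log2 fold change of 0.18 (adjusted p 0.0807) and H3f3b of -0.10 (adjusted p 0.182), by limma.

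Npm1 (chr11:33152287-33163206) had the smallest adjusted p of the 10 genes in Rbbp4 OE cells and the highest level. It was at 4419.95 and 4645 TPM in the control pair, 6039.5 and 6011 in the Rbbp4 OE pair, and 5185 and 5229.7 in Rbbp7 OE. The 3 groups did not overlap, with Rbbp7 OE again in between. Npm1 rose by 0.41 in Rbbp4 OE cells (SE 0.036, 95% interval 0.32 to 0.50, adjusted p 0.00574 by limma). Npm1 did not pass with quantile normalization or in a fit of the control and Rbbp4 OE libraries alone. It made up 79.4% of the summed TPM of the 10 genes in both control libraries, 85.6% and 85.4% in the Rbbp4 OE pair, and 82.8% and 82.7% in Rbbp7 OE. Without Npm1 the other 9 summed to 1144 and 1202 TPM in the control pair, 1013 and 1028 in the Rbbp4 OE pair, and 1075 and 1097 in Rbbp7 OE. Npm1 has 4 near-identical processed pseudogenes, which summed to at most 1.45% of its TPM, and reads could be split between them.

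**Figure D2:**
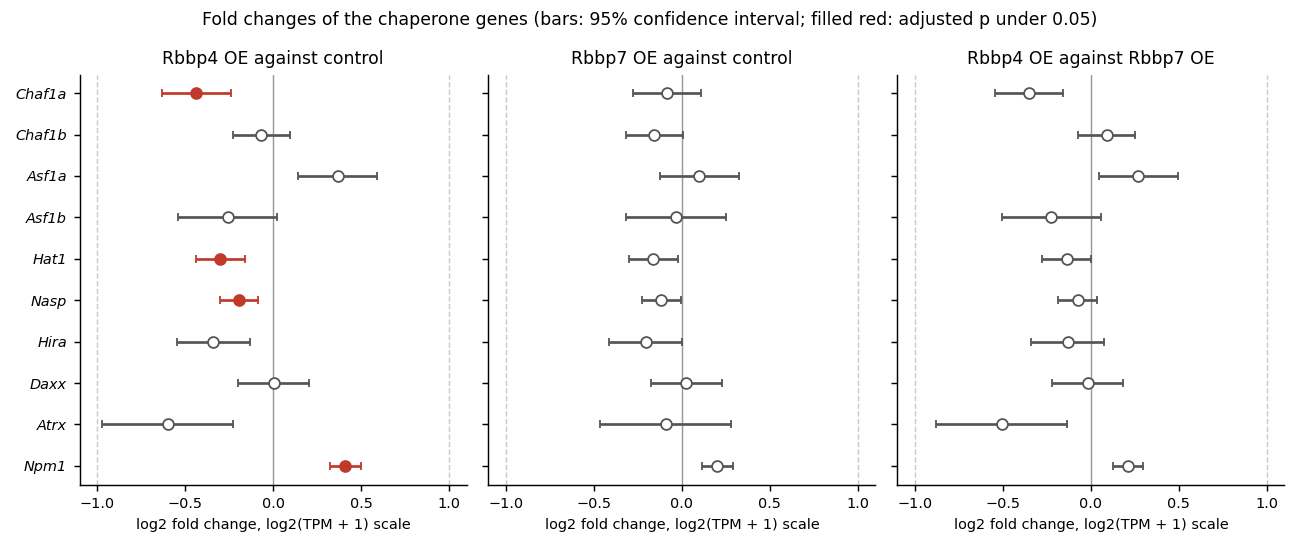
Log2 fold changes of the 10 genes in each comparison, on the log2(TPM + 1) scale, with bars for 95% intervals, red filled points for an adjusted p under 0.05 and dashed lines at a fold change of 2. In Rbbp4 OE against control, Npm1 (0.41) lies above 0 and Chaf1a (-0.44), Hat1 (-0.30) and Nasp (-0.19) below it, and these 4 passed the test.

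The second comparison asked the same of added Rbbp7. None of the 10 genes passed an adjusted p of 0.05 (limma), a threshold that 0.487% of all genes passed, and none passed the stricter one, which 0.0353% passed. At an unadjusted p under 0.05 there were 3 of the 10, Hat1, Nasp and Npm1, against 15.4% of all genes. Libraries did not overlap for 5 of the 10, against 44.5% of all genes, with 1 higher (21.2%) and 4 lower (23.4%). Both lines were compared with the same control libraries. The log2 fold change of Hat1, whose protein binds RBBP7, was -0.16 (95% interval -0.30 to -0.03, adjusted p 0.256 by limma). Npm1 had 0.20 (0.11 to 0.29, adjusted p 0.0961), Nasp -0.12 (adjusted p 0.299) and Hira -0.21 (adjusted p 0.329), all by limma. For the CAF-1 genes, Chaf1b had -0.16 (95% interval -0.32 to 0.0041) and Chaf1a -0.08 (-0.28 to 0.11). The interval of Chaf1a overlapped the one it had in Rbbp4 OE cells, -0.63 to -0.24. Both rest on the same control libraries, so this overlap does not measure whether the lines differ.

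The third comparison set the lines against each other. None of the 10 genes passed an adjusted p of 0.05 (limma), against 0.304% of all genes, and none the stricter threshold, against 0.0494%. At an unadjusted p under 0.05 there were 4 of the 10, Asf1a, Atrx, Chaf1a and Npm1, against 19% of all genes. Libraries did not overlap for 9 of the 10, against 54.7% of all genes, with 3 higher (16.1%) and 6 lower (38.6%). Chaf1a differed by -0.35 (95% interval -0.55 to -0.16, adjusted p 0.126), Npm1 by 0.21 (0.12 to 0.30, adjusted p 0.0957) and Atrx by -0.51 (-0.88 to -0.14, adjusted p 0.179), by limma. The fall of Chaf1a, Hat1 and Nasp and the rise of Npm1 were therefore not shown to differ between the lines at the adjusted threshold.

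Because RBBP4 and RBBP7 work in complexes, the ratio of each RNA to those of its partners was taken within each library. Rbbp4 over Chaf1a was 2.26 and 2.01 in the control pair, 5.49 and 5.23 in the Rbbp4 OE pair, and 2.21 and 2.22 in Rbbp7 OE. Rbbp7 over Hat1 was 0.733 and 0.678 in the control pair, 0.775 and 0.779 in the Rbbp4 OE pair, and 2.47 and 2.43 in Rbbp7 OE. Rbbp4 over Hat1 was 0.449 and 0.420 in the control pair and 1.01 and 0.972 in Rbbp4 OE. The numerator counts the construct's own RNA, so the higher ratio in each gene's own line follows from the overexpression and is given as a description. Neither Chaf1a, Chaf1b nor Hat1 rose in either line.

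**Figure D3:**
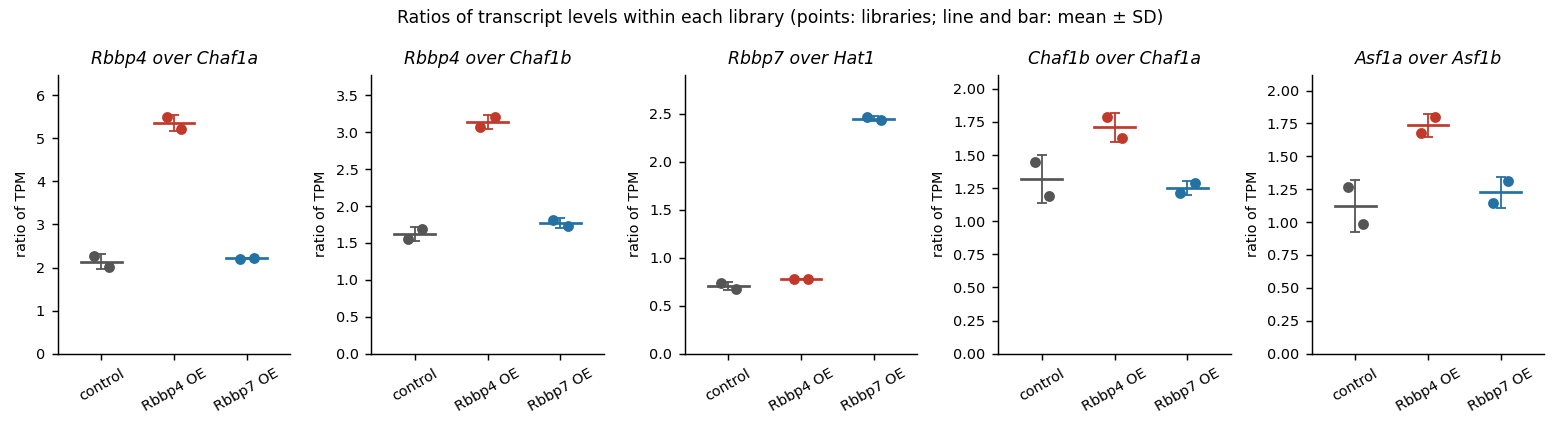
Ratios of TPM within each library, with points for libraries and lines and bars for the mean and SD of each group. Rbbp4 over Chaf1a is 5.49 and 5.23 in Rbbp4 OE and at most 2.26 elsewhere, and Rbbp7 over Hat1 is 2.47 and 2.43 in Rbbp7 OE and at most 0.779 elsewhere.

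Other histone chaperones and cell cycle genes were taken from lists. Of 26 other chaperones, 1 rose and 9 fell in Rbbp4 OE cells, with a median log2 fold change of -0.22, where 3.29% of all genes were higher and 8.07% lower. These calls were not stable either: fewer passed when any 1 library was left out, as over all genes, where fewer degrees of freedom remained. Nap1l1, a carrier of H2A and H2B, went from 555.4 and 590.8 TPM in the control pair to 416.4 and 418.2 in Rbbp4 OE and fell by 0.46 (adjusted p 0.00797 by limma). Anp32e, which removes H2A.Z, fell by 0.66 (adjusted p 0.00869 by limma), and Supt16, a subunit of FACT, by 0.51 (adjusted p 0.0172 by limma). Oip5, which helps load the centromeric histone, fell by 0.64 (adjusted p 0.0170 by limma), and Vps72, a subunit of H2A.Z-loading complexes, rose by 0.49 (adjusted p 0.0173 by limma). Of 25 S-phase genes 7 fell and none rose, with a median of -0.19, against the same 8.07% of all genes lower. Here too the count changed when single libraries were left out, mostly to fewer. Mcm6, a subunit of the replicative helicase, fell by 0.53 (adjusted p 0.0180 by limma), and Rrm2, a subunit of ribonucleotide reductase, by 0.39 (adjusted p 0.0208 by limma). Of 20 G2 and M-phase genes 2 rose and 2 fell, with a median of -0.05, and no more passed when single libraries were left out. Under median-of-ratios scaling the other chaperones had 2 higher and 6 lower, and the S-phase genes 4 that passed. Of all genes tested 10.1% passed under that scaling, 716 higher and 712 lower. The part of the S-phase genes in the values of Chaf1a, Hat1 and Nasp was not tested. In Rbbp7 OE cells none of the other chaperones passed, and 1 S-phase gene did.

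**Figure D4:**
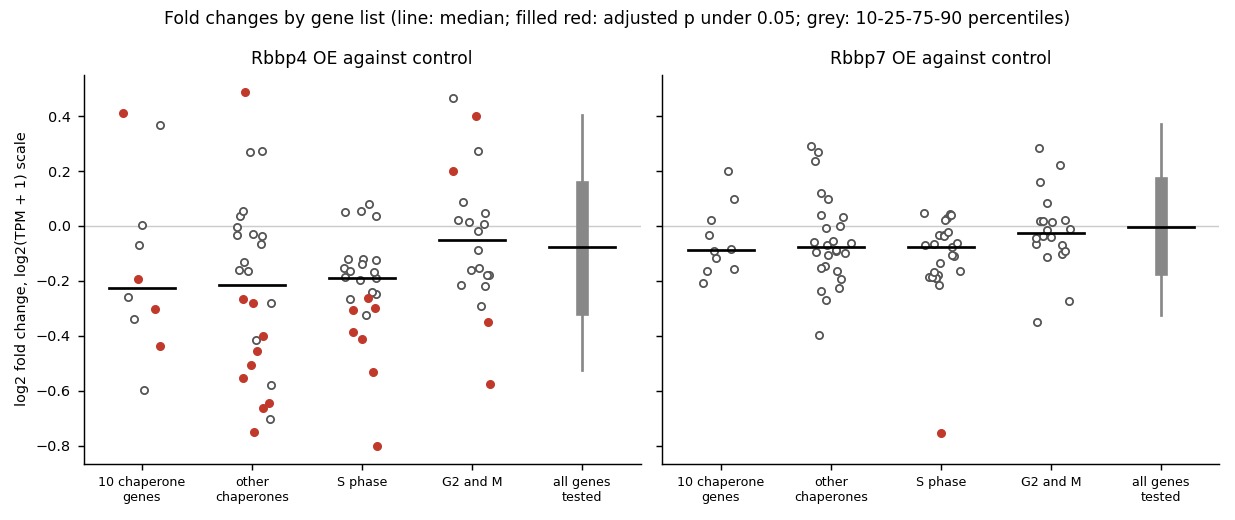
Log2 fold changes of the listed genes in each line against control, as points (red for an adjusted p under 0.05) with a line at the median, and percentiles of all genes tested in grey. In Rbbp4 OE against control the medians are -0.23 for the 10 genes, -0.22 for other chaperones, -0.19 for S-phase genes and -0.05 for G2 and M-phase genes, beside -0.08 for all genes tested.

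Transcript length and GC content moved with the difference between Rbbp4 OE and control cells. The median log2 fold change of protein-coding genes was 0.04 for longest transcripts under 1500 nt, -0.05 from 1500 to 3000 nt, -0.13 from 3000 to 6000 nt and -0.22 from 6000 nt. By GC content it was -0.21 under 42%, -0.19 from 42% to 47%, -0.12 from 47% to 52% and 0.01 from 52%. Nasp, Atrx and Asf1a lay in the lowest GC class, Hat1 and Npm1 in the next, and Chaf1a, Hira and Daxx in the highest. By length, Chaf1a, with 7698 nt, and Atrx, with 10275 nt, lay in the last class, Nasp and Hira in the one before, and Hat1 and Npm1 in the 1500 to 3000 nt class. After each library was corrected for transcript GC content and length, Chaf1a (-0.35, adjusted p 0.0300), Npm1 (0.47, adjusted p 0.0050) and Asf1a (0.42, adjusted p 0.0455) passed by limma. Hat1 (-0.25, adjusted p 0.0533) and Nasp (-0.09, adjusted p 0.263) no longer did.

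**Figure D5:**
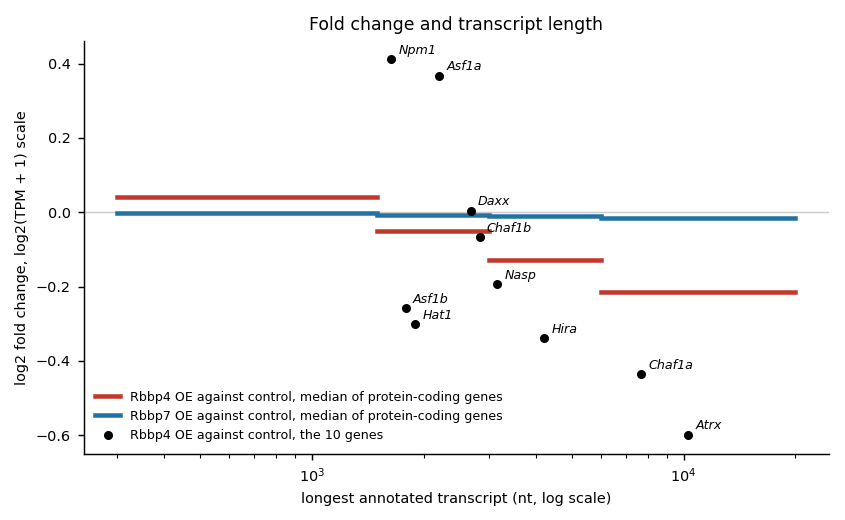
Log2 fold change by length of the longest transcript (log axis), with black points for the 10 genes in Rbbp4 OE against control and lines for the median of protein-coding genes in each length class, red for Rbbp4 OE and blue for Rbbp7 OE against control. The red medians run from 0.04 under 1500 nt to -0.22 from 6000 nt.

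The genes nearest in pattern over the 6 libraries were sought among tested protein-coding genes with a mean of at least 5 TPM. By root mean square difference of centred log2 values, they were Slc39a6 (0.0268), Kctd5 (0.0271) and Rexo4 (0.0274) for Chaf1a. For Chaf1b they were Eif3m (0.0218), Sumf2 (0.0250) and Med21 (0.0256). For Hat1 they were Mtfr1 (0.0133), Wdr35 (0.0181) and Dctn5 (0.0191).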

How the data were processed

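Poly(A) RNA-seq of 6 libraries was analysed from the TPM values that the authors deposited, 1 table per library. The authors used Trim_galore for trimming and STAR for alignment to mm10 with a GENCODE annotation, and estimated TPM with RSEM. TPM scales each library to a fixed total, so depth and counting error are unknown. Samples were grouped by their titles. Names and positions of genes were taken from GENCODE M21 (GRCm38), with 260 of 55401 identifiers unmatched, and promoters from RefSeq. The study used a count model; here limma-trend (limma 3.58.1, R 4.3.3) was fitted to log2(TPM + 1) over all 6 libraries for the 14156 genes whose mean TPM reached 0.5, with Benjamini-Hochberg adjustment over all of them. Fold changes on this scale understate those of low genes. The fit had 3 residual and 3.103 prior degrees of freedom. Nothing says that libraries came from separate cultures, so p-values measure the spread between libraries, which may be technical. Near-identical copies (at least 95% identity) were sought with blastn 2.17.0. The fit was tested on simulated data with planted changes larger than those of the 10 genes. That test does not show how well changes of their size are found. The members and lists were chosen with earlier results of these data known. All 10 members, Rbbp4 and Rbbp7 were named, with the 3 nearest patterns of Chaf1a, Chaf1b and Hat1. Up to 4 genes per list and comparison were named by smallest adjusted p. Vps72, Ubn1, Ubn2, Cabin1 and the H3.3 genes were named after their values were seen. Alternatives covered pseudocounts, filters, scalings, gene sets, designs, GC and length correction, and leaving out each library.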

Additional observations from a re-analysis of the deposited data

Results flagged for a closer look

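Set directly against each other, the lines differed in the overexpressed genes themselves. Rbbp4 was higher in Rbbp4 OE than in Rbbp7 OE cells by 0.912 on the log2 scale (adjusted p 0.00192 by limma), and Rbbp7 differed by -1.79 (adjusted p 8.31e-05 by limma). Each group carries the construct of that gene. None of the 10 chaperone genes differed between the lines at an adjusted p of 0.05 by limma, against 0.304% of all genes, and 4 had an unadjusted p under 0.05, against 19% of all genes.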

How the results depend on the processing

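The number of chaperone genes called in Rbbp4 OE against control, 4 as reported, depended on the processing. It was 1 with no filter on low values (2.87% of all genes passed), 7 where genes needed a mean of 5 TPM (22.6% of all genes passed), 7 over protein-coding genes only (15.9% of all genes passed), 0 in a fit of those groups alone (1.12% of all genes passed) and 0 at an adjusted p under 0.01 with a fold over 2. Leaving out 1 library gave 0 to 5, while 0.332% to 11.1% of all genes passed: 5 without control replicate 1, 1 without control replicate 2, and 0 without any one of the other 4 libraries, which also leaves fewer residual degrees of freedom. With the replicate number as a block it was 3, and Nasp lost its call (adjusted p 0.0803 by limma). Deviations of same-numbered libraries correlated at -0.026 to 0.034 over genes, so no pairing by number was seen. With 2 libraries a group, this cannot exclude a shared culture or preparation. Over 18 alternatives the adjusted p (limma) ran from 0.0142 to 0.157 for Chaf1a, 0.0163 to 0.167 for Hat1, 0.0339 to 0.294 for Nasp and 0.00231 to 0.12 for Npm1, and their directions held. The other comparisons called 0 of the 10 under every alternative.

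Signs turned only in values that did not pass. In Rbbp4 OE against control, Chaf1b was 0.039 with median-of-ratios scaling and 0.0040 with quantile normalization, and Daxx was -0.12 with GC and length correction and -0.071 to 0.080 without single libraries. In Rbbp7 OE against control, Daxx was -0.026 and Rbbp4 0.017 with GC and length correction, and Rbbp4 was 0.0040 with quantile normalization. Without single libraries Chaf1a was -0.17 to 0.00051, Asf1a -0.023 to 0.22, Asf1b -0.19 to 0.12, Daxx -0.053 to 0.099 and Atrx -0.29 to 0.11. In Rbbp4 OE against Rbbp7 OE, median-of-ratios scaling gave 0.023 for Nasp and 0.080 for Daxx, quantile normalization gave 0.033 for Daxx, and Daxx was -0.089 to 0.052 without single libraries. The cause was not tested.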

Other observations

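Gins2, a subunit of the GINS complex of the replicative helicase, was the S-phase gene that passed the test in both lines. It was at 126.0 and 113.9 TPM in the control pair, 69.4 and 67.3 in the Rbbp4 OE pair, and 69.2 and 72.1 in Rbbp7 OE. It fell by 0.80 in Rbbp4 OE cells (adjusted p 0.00577 by limma) and by 0.75 in Rbbp7 OE cells (adjusted p 0.0289 by limma), and both lines were compared with the same control libraries. In Rbbp7 OE cells no S-phase gene passed when any one library was left out, nor with no filter on low values, median-of-ratios scaling, the replicate block or a fit of those groups alone.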
